A study of Danio rerio with 2 samples.

Results

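Chromatin regulators and histone genes were compared between 2 pools of adult zebrafish hearts, taken 24 hours after amputation of about 20% of the ventricle at its apex. Adult zebrafish regrow the ventricular muscle they lose. One pool came from fish kept in water and the other from fish kept in atropine, a drug that blocks the muscarinic acetylcholine receptors by which the vagus nerve slows the heart. Each pool held 15 whole hearts and was measured on 1 Affymetrix expression array, so both groups carried the same injury, neither was uninjured, and no value below has a replicate. The labels name no strain, transgene, atropine dose or age in days.

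The genes were chosen by symbol. They are those whose single symbol in the array's annotation begins with hdac, smarc, kdm, cbx, setd, sirt, h2a, h1f or h3f, or is chd, brd or ing followed by a digit. The rule reads symbols only and no measured value, although it was written with earlier results of these data known. It gave 97 probe sets for 69 genes, of 8793 genes with a single symbol, and no gene of the h1f prefix was among them. Where a gene had several probe sets, the one with the highest mean of the 2 arrays was used. A further 5 probe sets carry several symbols, of which at least 1 fits, and were left out. Of the 69 genes, 54 had a mean at or above 4.05 on the log2 scale, the median of all values, and the other 15 lay below it.

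Chromatin is DNA wound around histone proteins. Enzymes add or remove acetyl and methyl groups on histone tails, reader proteins bind those marks, and remodelling complexes use ATP to slide, evict or exchange nucleosomes. Through these steps a cell sets which genes can be transcribed, and histone deacetylases, polycomb proteins and SWI/SNF remodellers have known roles in vertebrate heart development. Most of the genes described here are expressed in many cell types, so a level from whole hearts belongs to no single cell type. In such bulk RNA, fewer cells of a type and less RNA per cell cannot be told apart.

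None of the 54 genes past the level filter differed between the pools by as much as 1.5-fold in either direction. Among all 5184 genes compared in the same way, 1.83% were at least 1.5-fold higher in atropine and 2.06% at least 1.5-fold lower, together 3.9%. At 2-fold these shares were 0.405% and 0.347%. The count of 0 is relative to the other genes, since a scaling to spike-in transcripts, tried after the values were seen, shifts all genes upward and would put 18 of the 54 (33.3%) and 31.9% of all genes at least 1.5-fold higher. For the values as deposited, the share of 3.9% would be 2.1 of 54 genes. A count of 0 therefore lies near the background, and nothing particular to these genes is read from it. On the log2 scale, the differences (atropine minus water) ran from -0.36 for ing5b to 0.47 for brd2a. Their median was 0.03, against -0.01 over all genes compared. Their standard deviation across genes was 0.18, against 0.27 over all genes. Of the 54, 30 were above 0, or 55.6%, where 47.9% of all genes were. Families and lists below hold few genes each, and their counts above 0 stand beside that same 47.9%.

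**Figure D1:**
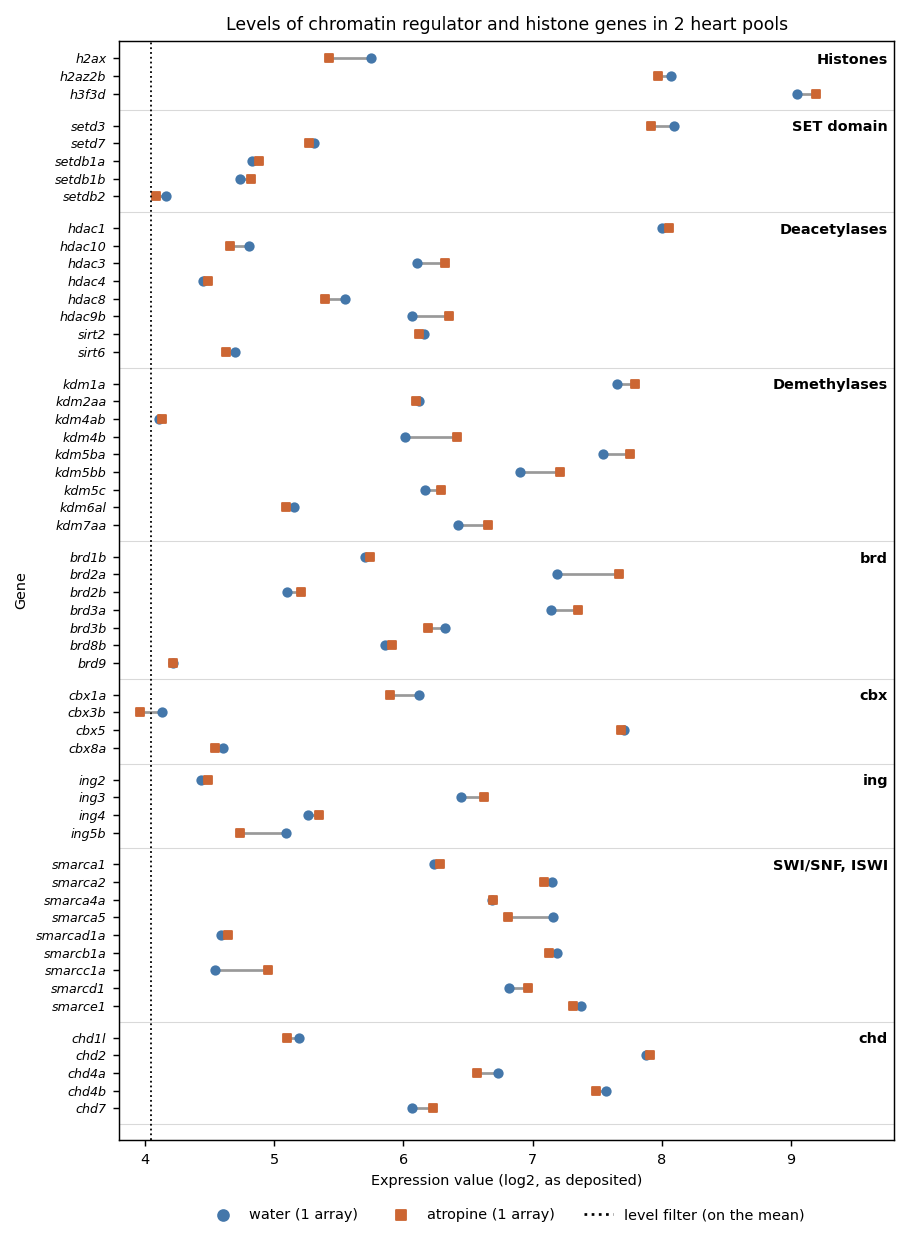
Log2 expression value, as deposited, of each of the 54 genes past the level filter in the water pool (circles) and the atropine pool (squares), 1 array each, grouped by family; the grey line joins the 2 values of a gene and the dotted line is the level filter. The paired symbols lie close together in every family, and the widest gap is that of brd2a, at 7.19 in water and 7.67 in atropine.

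A smaller fold was examined after the values had been seen. At 1.2-fold, 5 genes were higher in atropine, namely brd2a, smarcc1a, kdm4b, kdm5bb and hdac9b, and 3 were lower, ing5b, smarca5 and h2ax. Of these 8, brd2a and kdm5bb alone stayed past 1.2-fold under each of 9 alternative settings, and the other 6 came under it in at least 1. Level filters change no gene's difference. Since kdm5bb has 1 probe set, probe set choices could not move its value either. The background at that fold was 10.3% of all genes higher and 13.7% lower, together 24%, against 8 of 54 or 14.8%. Expressed as genes, the background would be 5.57 higher and 7.38 lower. In either direction it would be 12.9 genes, against the 8 found. The fold was chosen after the values were seen, so nothing particular to these genes is read from this difference. Between 6 and 7 on the log2 scale, where 16 of the genes lay, 3 passed 1.2-fold, against 25.5% of 1157 genes in that range. Between 4.05 and 5 it was 2 of 14, against 23.5% of 1150 genes.

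**Figure D2:**
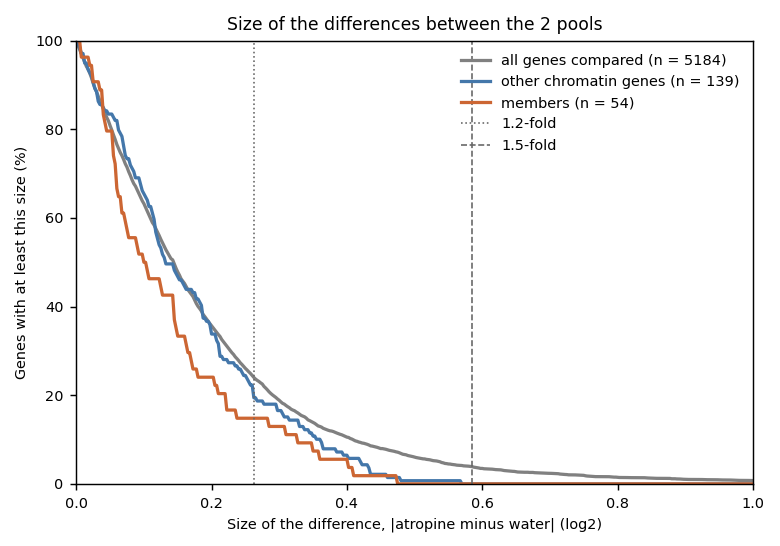
Share of genes, in percent, whose difference between the pools is at least the size on the horizontal axis (log2, sign ignored), for the 54 chromatin regulators and histones, 139 other chromatin genes and all 5184 genes compared, with 1.2-fold and 1.5-fold marked. The curve of the 54 genes reaches 0 at 0.47, and over most of the range it lies under that of all genes.

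The symbol rule took in 3 histone genes, all past the filter, and 5 further measured histone genes with other symbols are described with the lists below. The gene h2ax encodes H2A.X, the variant that is phosphorylated around DNA breaks, and stood at 5.75 in water and 5.43 in atropine, 1.25-fold lower. The gene h2az2b encodes an H2A.Z protein, a variant placed around transcription start sites, and stood at 8.07 and 7.97, a difference of -0.10. The third, h3f3d, is 1 of several zebrafish genes for H3.3, an H3 variant that is also laid down outside S phase. It stood at 9.05 and 9.19, a difference of 0.14. Histone variant genes have near-identical copies, so the single-gene values of h2az2b and h3f3d are uncertain.

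Among genes with a SET domain, the fold of most lysine methyltransferases, 5 of 8 passed the filter and their median was -0.04. The sign of that median turned without a level filter, at 0.0092. It also turned, at 0.0099, without probe sets whose name marks a match to several transcripts, of the same gene or of others. The family is therefore given no direction. The gene setd3, whose mammalian product methylates a histidine of actin, stood at 8.09 in water and 7.92 in atropine, a difference of -0.17 that was -0.21 on its second probe set. The genes setdb1a and setdb1b encode relatives of mammalian SETDB1, which methylates histone H3 at silenced DNA. They differed by 0.06 and 0.09, and the second setdb1a probe set was at -0.06. The related setdb2 differed by -0.07, and setd7 by -0.04.

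Histone deacetylases remove acetyl groups and mostly repress transcription. Of 8 hdac genes 6 passed the filter, 4 above 0 and 2 below, with a median of 0.05. The class I gene hdac1, the catalytic core of several corepressor complexes, stood at 8.004 in water and 8.06 in atropine. The gene hdac3, whose product works with the NCoR corepressors, stood at 6.10 and 6.32, 1.17-fold higher, or 0.08 (log2) as the mean with a dimmer probe set, which was at -0.07. The gene hdac9b encodes a class IIa deacetylase, a class that represses MEF2 factors in muscle, and stood at 6.07 and 6.35, 1.22-fold higher. Another class IIa gene, hdac4, differed by 0.04. On the lower side were hdac8, a class I gene, at 5.55 and 5.40, and hdac10, whose product is a polyamine deacetylase, at 4.80 and 4.66. The sirtuins are deacetylases that consume NAD. The cytoplasmic tubulin deacetylase gene sirt2 differed by -0.04 and the nuclear sirt6 by -0.07, and sirt3, for the mitochondrial sirtuin, lay below the filter.

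Of 12 lysine demethylase genes 9 passed the filter, with a median of 0.15. Of these 9, 7 were above 0 and 2 below, where 47.9% of all genes compared were above 0. The median ran from 0.11 to 0.20 over the same alternatives. The gene kdm4b encodes a jumonji enzyme that removes methyl groups from histone H3 at silent chromatin, and stood at 6.01 in water and 6.42 in atropine, 1.32-fold higher. The name of its probe set marks a match to several transcripts of the same gene, and the other one past the filter differed by 0.13. Its probe sets below the filter were at 0 and -0.08, and the mean of all 4 was 0.11. The KDM5 enzymes remove methyl groups that mark active promoters. Here all 3 of their measured genes were above 0, with kdm5bb at 6.91 and 7.21, kdm5ba at 7.55 and 7.75, and kdm5c at 6.17 and 6.29. The gene kdm7aa, for a jumonji enzyme with a PHD finger, stood at 6.42 and 6.66, but only 0.10 apart when its probe sets were averaged. The flavin-dependent demethylase gene kdm1a (LSD1) stood at 7.65 and 7.80, 1.11-fold higher. Nearest 0 or below it were kdm4ab (0.02), kdm2aa (-0.02) and kdm6al (-0.06). The last of these is related to mammalian KDM6A, which removes the polycomb mark, and its 3 probe sets past the filter lay on both sides of 0.

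**Figure D3:**
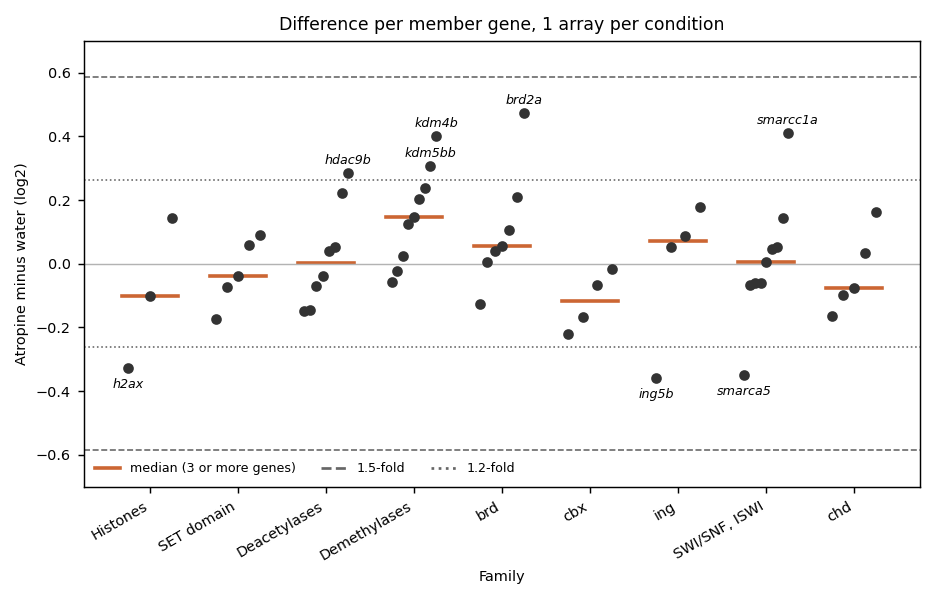
Difference between the pools (atropine minus water, log2) for each of the 54 genes, by family, with a bar at the median of each family and lines at 1.2-fold and 1.5-fold; each point is 1 gene from 1 array per condition. All points lie inside the 1.5-fold lines, and the 8 named genes lie outside the 1.2-fold lines. The deacetylase column joins the hdac and sirt genes, with a median of 0.0008, and the histone column the h2a and h3f genes, with a median of -0.10.

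Bromodomain proteins read acetylated lysines. Of the 8 brd genes 7 passed the filter, 6 of them above 0, where 47.9% of all genes compared were. The median of the 7 was 0.06. The gene brd2a had the largest difference of all 54, at 7.19 in water and 7.67 in atropine, 1.39-fold higher. By size it ranked 375th of 5184 genes. BRD2 and BRD3 belong to the BET proteins, which bind acetylated histones at active genes and recruit the elongation machinery. All 4 probe sets of brd2a were higher in atropine, the other three by 0.17, 0.19 and 0.29, and their mean was 0.28. Its duplicate brd2b differed by 0.11, brd3a by 0.21 and brd3b by -0.13. The gene brd3b had 3 probe sets past the filter, all below 0. One more, below the filter, was at 0.40, and the mean of all 4 was 0.02. The genes brd1b and brd8b, for subunits of histone acetyltransferase complexes, and brd9, for a subunit of a SWI/SNF complex, differed by 0.04, 0.06 and 0.01.

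Chromobox genes encode readers of methylated histone H3, HP1 proteins (cbx1, cbx3 and cbx5) in heterochromatin and polycomb subunits (cbx2, cbx6 and cbx8). All 4 of the 7 cbx genes past the filter were below 0, where 47.9% of all genes compared were above it. The median of the 4 was -0.12. That median was -0.06 with 16 added to the linear values and -0.02 over all 7 genes without a level filter. The lowest was cbx1a, at 6.12 in water and 5.90 in atropine, 1.16-fold lower. The gene cbx3b stood at 4.13 and 3.96, with a mean just inside the filter, and cbx8a at 4.61 and 4.54. The gene cbx5 differed by -0.02, and its value turned positive under 3 of 9 alternatives, up to 0.07 as the mean of 2 probe sets. The 3 cbx genes below the filter differed by 0.01 to 0.09.

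The ING proteins carry a PHD finger that binds methylated histone H3 and sit in acetyltransferase or deacetylase complexes. All 4 ing genes passed the filter, and 3 were above 0, with a median of 0.07. The exception, ing5b, had the largest difference toward lower values of all 54, at 5.10 in water and 4.74 in atropine, 1.28-fold lower. With 16 added to the linear values, which damps low signals, it was -0.23. Of the others, ing3 differed by 0.18, ing4 by 0.09 and ing2 by 0.05.

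The smarc genes encode ATPases and core subunits of chromatin remodellers. Of 10 genes 9 passed the filter, 5 above 0 and 4 below, with a median of 0.01. That median turned to -0.06 with the filter at the upper quartile and to -0.03 with none, so it has no direction. The SWI/SNF core subunit gene smarcc1a stood at 4.54 in water and 4.95 in atropine, 1.33-fold higher, or 0.26 (log2) with 16 added. In contrast, smarca5, for the ATPase of the ISWI complexes (SNF2H), stood at 7.16 and 6.81, 1.27-fold lower. Averaged with 2 dimmer probe sets below the filter it was at -0.16. The SWI/SNF ATPase genes smarca2 (BRM) and smarca4a (related to BRG1) differed by -0.06 and 0.01, and the second probe set of each was at 0.14 and -0.23. For other subunits, smarcd1 differed by 0.14, smarcb1a by -0.07 and smarce1 by -0.06. Outside SWI/SNF, smarca1, the other ISWI ATPase gene, differed by 0.04 and smarcad1a by 0.05. On the probe sets used, smarcc1a was the only one of these SWI/SNF genes past 1.2-fold.

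Most of the chd genes encode chromodomain helicases. Of 6, 5 passed the filter, with a median of -0.08. The NuRD complex couples the CHD4 remodeller to deacetylases, and its genes chd4a and chd4b differed by -0.16 and -0.08. However, 2 further probe sets of chd4b were at 0.23 each, so its mean of probe sets was 0.13. The gene chd7, whose human counterpart is mutated in CHARGE syndrome, a disorder that includes heart defects, stood at 6.07 in water and 6.23 in atropine. Its second probe set was at -0.16. The gene chd2 was at 0.03 on one probe set and at -0.19 on the other, and chd1l, for a remodeller in DNA repair, by -0.10.

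The 15 genes below the level filter were hdac6, hdac11, sirt3, smarcb1b, chd1, brd8a, cbx1b, cbx2, cbx6b, kdm4c, kdm6ba, kdm8, setd4, setd6 and setd9. Their values ran from 2.74 to 3.997 and their differences from -0.14 to 0.26. Whether these probe sets were above background is not known here, and no fold is given.

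The spread between probe sets of the same gene was read from genes with several. All are measured on the same 2 RNA pools, so this spread leaves out the variation between fish and pools. Over 623 genes with at least 2 probe sets past the filter, a single probe set's difference had a standard deviation of 0.15 around its gene's mean, taken from the gap between the 2 brightest. Over the 12 such genes among the chromatin regulators it was also 0.15. The standard deviation of 0.18 across the 54 genes is little larger than that. The 2 brightest probe sets shared their direction in 6 of 12 of these genes and in 71.6% of the 623. Those that shared it were brd2a, brd3a, brd3b, kdm4b, kdm6al and setd3. Probe sets of a gene can also detect different transcript ends, so the spread between them need not be measuring error alone. This was not tested.

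**Figure D4:**
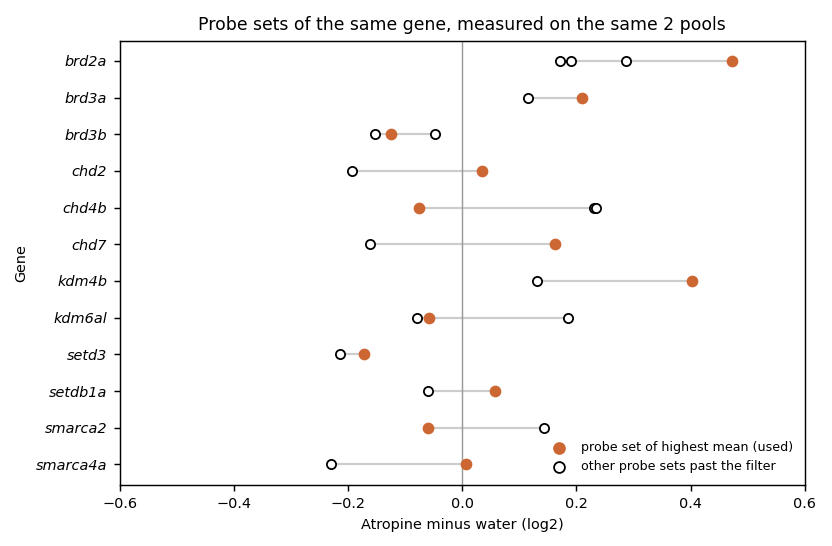
Difference between the pools (atropine minus water, log2) on each probe set past the level filter, for the 12 genes with at least 2; filled points are the probe set used for the gene, open points the others. The 4 probe sets of brd2a all lie above 0, whereas those of chd2, chd4b, chd7, kdm6al, setdb1a, smarca2 and smarca4a lie on both sides of 0.

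Zebrafish carry duplicates of many chromatin genes, and 5 duplicate pairs were measured with both copies past the filter. The copies of brd2, kdm5b and setdb1 were higher together and those of chd4 lower together, on the probe sets used, while brd3a and brd3b lay on opposite sides of 0. The largest gap within a pair was that of brd2a (0.47) and brd2b (0.11).

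Other genes of chromatin were taken from 12 lists by complex, holding 344 names apart from the genes above. Of these 180 had a probe set and 139 passed the filter. None was at least 1.5-fold apart, where the background was 1.83% higher and 2.06% lower. Their median was 0.02, and 76 of 139 were above 0. The nearest to 1.5-fold, picked after its value was seen, was bicra, for a SWI/SNF subunit, at 5.31 in water and 5.87 in atropine, 1.48-fold higher. At 1.2-fold 12 were higher (8.63%) and 15 lower (10.8%), both shares under the background of 10.3% and 13.7%.

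Genes for acetyltransferases and their complexes, and for SWI/SNF partners, had medians above 0. The median of 19 genes for histone acetyltransferases or subunits of their complexes was 0.10. Of these 15 were above 0, where 47.9% of all genes compared were. The brightest, meaf6 and kat8, for a subunit of MYST acetyltransferase complexes and for an acetyltransferase of H4, differed by 0.26 and 0.15. Of 8 SWI/SNF subunit genes other than smarc 5 were above 0, with a median of 0.18, where bcl7ba differed by 0.16 and actl6a by -0.34. Of 17 histone chaperone genes 11 were above 0, with a median of 0.08, though the brightest, setb and npm1a, were at -0.12 and -0.11. Of 15 genes listed with the INO80, SRCAP and ISWI complexes 9 were above 0, with a median of 0.08. The brightest were atrx, for a remodeller outside these complexes, at 0.12 and baz2a at 0.09.

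Polycomb complex 1 genes other than cbx were spread widely. Of 7, 4 were above 0, with rnf2, the catalytic ubiquitin ligase gene, at 7.35 in water and 7.63 in atropine and phc2a, for a polyhomeotic subunit, at 6.90 and 6.47. Picked after their values were seen, bmi1a differed by 0.42 and phc2b by -0.48. The 3 polycomb complex 2 genes stayed near 0, with eed at -0.05, suz12b at 0.06 and a median of 0.03. Deacetylase corepressor partners had a median of 0.03 over 17 genes, with the histone-binding subunit gene rbbp4 at -0.12 and arid4a, for a SIN3 complex subunit, at 0.26. The 18 genes for other histone methyltransferases or subunits of their complexes had a median of -0.03. Among them, the arginine methyltransferase gene prmt1 was at 0.01 and ash1l at 0.23. For the 5 demethylase relatives outside the kdm names the median was 0.02, with hif1an, for a hydroxylase of hypoxia-inducible factor, at 0.14 and phf2 at 0.02. The 4 DNA methylation genes had a median of -0.09, with mbd2 at -0.07 and mbd3a at 0.03.

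Genes of architectural proteins, cohesin and lamina were the largest list below 0. Its median was -0.07 over 23 genes, of which 7 were above 0. The high mobility group genes hmgb2a and hmgb1a, for abundant proteins that bend DNA, stood at 9.55 and 9.35 in water and at 9.22 and 9.32 in atropine. This subset was picked after its values were seen. Of its 12 genes past the filter, 5 were at least 1.2-fold lower, where 13.7% of all genes compared were. These were hmga1a, hmgn6, hmgn7, hmgb2b and hmgb2a, from -0.46 to -0.33. Of the rest, hmgb3b was at -0.25, and the other 6 lay between -0.12 (hmgb1b) and 0.07 (hmgb3a). Since the subset was picked by its values, nothing is read from the count. Of the 5 further histone genes 4 passed the filter, 1 of them above 0, with a median of -0.19. The linker histone gene histh1l1 stood at 7.76 and 7.33, 1.35-fold lower, and hist2h2l differed by -0.19. Another linker histone gene, h1-10, also picked after its value was seen, was on the other side at 5.26 and 5.64.

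Some markers of other cell types differed between the same 2 pools by more than any of these chromatin genes. Among all genes compared, 1.83% were at least 1.5-fold higher in atropine and 2.06% at least 1.5-fold lower. Of 9 red blood cell markers, all were above 0 and 6 at least 1.5-fold higher in atropine, and their summed linear level was 12977 in water and 17219 in atropine. Zebrafish red blood cells keep their nuclei. Of 8 macrophage markers 2 were above 0 and 3 at least 1.5-fold lower. Of 6 neutrophil markers 1 was above 0 and 4 were at least 1.5-fold lower. The macrophage and neutrophil sums were 3929 and 1966 in water and 2534 and 1323 in atropine. Such a sum of linear values weighs the brightest genes of a list most. Of the 4 fibroblast and epicardium markers past the filter 3 were at least 1.5-fold lower. The sum over 5 was 729.3 in water and 401.4 in atropine. Of 5 cardiomyocyte markers 2 were at least 1.5-fold lower, tnnc1a (-1.41) and myh7 (-1.19). The sum over the 5 was 26899 in water and 24711 in atropine. The heart muscle gene myl7, picked after its value was seen, stood at 13.23 and 13.21. The 4 endothelial markers summed to 645 and 622. Of 11 S phase markers 7 passed the filter, with a median of -0.07, and cdt1 alone was over 1.5-fold apart, 1.96-fold higher. Its water value of 3.60 lay below the filter level, and it passed only through its atropine value of 4.57, so this fold is uncertain. Of 8 G2/M markers kif20a and tacc3 passed the filter, both over 1.5-fold higher. Among the 6 below the filter, ccnb1 (-0.42), plk1 (-0.33) and cdk1 (-0.26) had the lowest differences. They were picked after their values were seen. No marker of these lists was at 0, since the values have no true 0. Their part in the differences of the chromatin genes was not tested.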

How the data were processed

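Per the labels' protocols, an Affymetrix 3' IVT kit was used to label the RNA of each pool. The deposited table holds 1 log2 value per probe set and array, a scale inferred from the range of 2.02 to 14.05. How the authors normalized the values, and with which software, is not given in the sources used here. Sorted by size, the values of one array lay within 0.15 of the other's, and the arrays correlated at r = 0.994 across 15502 non-control probe sets, which are not replicates. This is how arrays look after an equalizing step, which would hide a global shift in RNA, but no source states one.

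Of these probe sets 10795 had 1 symbol, 135 several and 4572 none. All 69 symbols matched the RefSeq symbol of their Entrez identifier (GRCz12tu gene table). The table's coordinates were not used, since the array names no build. Differences are as deposited. A scaling to 12 polyadenylated spike-in probe sets would move the median of all genes from -0.01 to 0.49 and shift every gene alike, so directions are relative to the other genes. The level filter asks for a mean of both values at or above 4.05. With 1 array per group no test exists, the number of arrays limits the precision, and folds are log2 differences put back on the linear scale. Detection calls were not used here.

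The members and the lists were chosen with earlier results of these data known. Of the list names, markers included, 231 matched by symbol, 7 by synonym and 181 not. Every gene past the filter could be named, and for the lists those at least 1.5-fold apart or else the 2 brightest. Genes named otherwise are said to be so. The calculation was tested on simulated data, with planted changes larger than the threshold, in brighter genes only, and noise smaller than in these data. That test checks the code and gives no measure of accuracy here. Alternatives were median centring, quantile normalization, loess on mean level (span 0.4), other level filters, an offset of 16, other probe set choices and thresholds of 2-fold and, added after seeing the data, 1.2-fold. Python 3.11.15, numpy 2.4.6, pandas 2.3.3 and statsmodels 0.14.6 were used.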

Additional observations from a re-analysis of the deposited data

How the results depend on the processing

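No gene of the 54 and none of the other chromatin genes passed 1.5-fold under any of 9 alternatives, or 2-fold. The alternatives varied the scaling to the arrays themselves, the level filter, the offset or the probe set choice. Part of this outcome was fixed in advance. Since none passed 1.5-fold as deposited, the 2-fold threshold, the upper quartile filter and the offset could only give 0. A scaling to the polyadenylated spike-ins, added after seeing the data, put 18 of the 54 at least 1.5-fold higher and 0 lower, with 31.9% of all genes higher. At 1.2-fold, a threshold added after seeing the data, 5 of the 54 were higher and 3 lower, and of the other chromatin genes 12 were higher and 15 lower, against 10.3% of all genes higher and 13.7% lower. Over the 9 alternatives the median of the chromatin regulators and histones stayed between 0.018 and 0.045. The spike-in scaling would put the median of the 54 at 0.53. Family medians moved by over 0.1 (log2) only with the filter at the upper quartile, which leaves 31 genes. There they were 0.22 for hdac, 0.21 for brd, 0.18 for ing, -0.17 for setd and -0.10 for h2a. Those for ing, setd and h2a are the unchanged values of ing3, setd3 and h2az2b, each the only gene left of its family. The sign of the setd and smarc medians turned under 2 alternatives each. Of the 54 genes 46 kept their sign wherever they had a value, among them all 8 past 1.2-fold, and 8 did not. The 8 whose sign turned all have several probe sets. For a gene with 1 probe set, level filters and probe set choices could not move the value, so a kept sign was partly fixed in advance. No paired analysis was possible because each condition has 1 array. For the same reason no array could be left out. The 15 genes below the filter have no detection call here.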
